A study of Bos taurus with 24 samples.

Results

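Transcripts of 4 class II genes of the bovine major histocompatibility complex (MHC, called BoLA in cattle) were followed in liver and mammary biopsies of Holstein dairy cows. They are BOLA-DRA (ENSBTAG00000010645), BOLA-DRB3 (ENSBTAG00000013919), BOLA-DQB (ENSBTAG00000021077) and a BOLA-DQA gene (ENSBTAG00000009656, written BOLA-DQA here). They were taken by Ensembl gene ID, a rule that uses no measured value but was set with earlier results of these data known, and are 4 of the 27607 gene IDs in the raw count tables. Their names came with the choice of IDs, since the deposited tables list IDs only. All cows were multiparous and in the dry period, the pause in milking before calving, which began 60 d before the expected date, and from 35 d before that date they stood in tie stalls with 150 lx of light for 16 h per day, followed by 8 h of darkness. Control cows kept a fixed cycle. For phase shift cows the cycle moved forward by 6 h every 3 d, and the biopsies at 21 d before expected calving followed 2 weeks and at least 5 shifts. Each treatment had its own side of a partitioned barn, and the side and the treatment cannot be told apart.

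Class II molecules are pairs of an alpha and a beta chain that display peptides from ingested proteins to CD4+ T cells. They are made mainly by antigen presenting cells, such as macrophages, dendritic cells and B cells, and can be induced on other cells by interferon gamma. In cattle, DR is formed by BOLA-DRA, whose sequence hardly varies, and by BOLA-DRB3, the main expressed beta gene and one of the most polymorphic genes of the genome. DQ is formed by DQA and DQB chains, which are polymorphic too, and cattle haplotypes differ in how many copies of the DQ genes they carry.

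There were 12 libraries per tissue, 6 control and 6 phase shift, from 13 labelled cows. Both tissues were available for 11 cows, 6 control and 5 phase shift. By label, phase shift cow 25 had a liver library only and phase shift cow 21 a mammary library only. The labels name 7 phase shift cows where the series text gives 6. Whether the labels 25 and 21 stand for separate animals could not be settled, and they were left unpaired. The liver libraries held 7.68 to 26.9 M counted reads (M for mega) and the mammary libraries 5.05 to 13.1 M. Levels are given as CPM (reads per mega reads of a library), scaled over all 24 libraries by the trimmed mean of M values (TMM) and not divided by transcript length, so they are compared between libraries and not between genes. On the first principal component of liver, the library of phase shift cow 22 had a score of 93.9 and the other 11 libraries scored from -10.1 to -6.30. On that of mammary, phase shift cow 21 scored 77.8 and control cow 26 scored 120.1, against -36.7 to -4.21 in the other 10 libraries. The treatment and tissue differences, the agreement between tissues and the correlation of the DR genes are given with and without these 3 libraries. Levels, spreads and the other results include them.

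A further limit is the likeness of these genes to their neighbours. In the RefSeq cattle gene table (assembly ARS-UCD2.0, used for names and order only), the stretch from BOLA-DQA2 to BOLA-DRA holds 3 entries for DQA, 2 for DQB, 3 for DRB and 1 for DRA. Reads of near-identical copies can be divided between entries or left uncounted, so the DQ counts in particular are uncertain. How much of the variation below this accounts for was not tested. No ID of the count tables could be matched to that table, which left 0 of 15 other class II pathway genes (such as CD74 and CIITA) and 0 of 19 cell type markers with values. In bulk biopsies, fewer antigen presenting cells and less RNA per cell cannot be told apart.

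The DR genes were well covered in every library, with 1095 to 11754 reads for BOLA-DRA. In liver, BOLA-DRA ran from 210 CPM through a median of 330 to 598 CPM in the 6 control cows, and from 183 through 316 to 439 CPM in the 6 phase shift cows. In mammary it ran from 258 through 640 to 1166 CPM in control cows and from 280 through 552 to 602 CPM in phase shift cows. The highest liver and the highest mammary library belonged to the same animal, control cow 21. The lowest liver level was that of phase shift cow 22 and the lowest mammary levels those of control cow 26 and phase shift cow 21, the 3 libraries that stood apart. Over the 12 libraries of a tissue, the mean was 355 ± 128 CPM in liver and 576 ± 232 CPM in mammary (SD, n = 12).

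BOLA-DRB3, the beta chain that pairs with BOLA-DRA, had 457 to 5884 reads per library and followed a similar order of cows. In liver it ran from 89.2 through a median of 134 to 277 CPM in control cows and from 76.3 through 124 to 183 CPM in phase shift cows. In mammary it ran from 132 through 300 to 584 CPM in control cows and from 105 through 260 to 332 CPM in phase shift cows. Control cow 21 was again highest in both tissues. The mean was 147 ± 65.6 CPM in liver and 281 ± 120 CPM in mammary (SD, n = 12).

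BOLA-DQB, a DQ beta chain, spanned a far wider range. In liver, the control cows ran from 0.662 CPM through a median of 2.12 CPM to 48.8 CPM in cow 19, whose library held 289 reads of the gene. The phase shift cows ran from 0.325 through 0.699 CPM to 21.1 CPM in cow 24, which had 122 reads. Every other liver library lay at or below 6.02 CPM. In mammary, control cow 19 was again highest at 60.2 CPM (634 reads), above 11.3 CPM in the next control cow, a median of 7.41 CPM and a lowest level of 1.15 CPM. Phase shift cow 24 reached 37.2 CPM (354 reads) and phase shift cow 21, which has no liver library, 15.5 CPM, and the group ran down to 0.517 CPM. The lowest values rest on few reads: the 3 reads in the liver of phase shift cow 22 put 0.501 CPM within an exact 95% Poisson interval of 0.103 to 1.46 CPM, which covers counting error only.

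**Figure D1:**
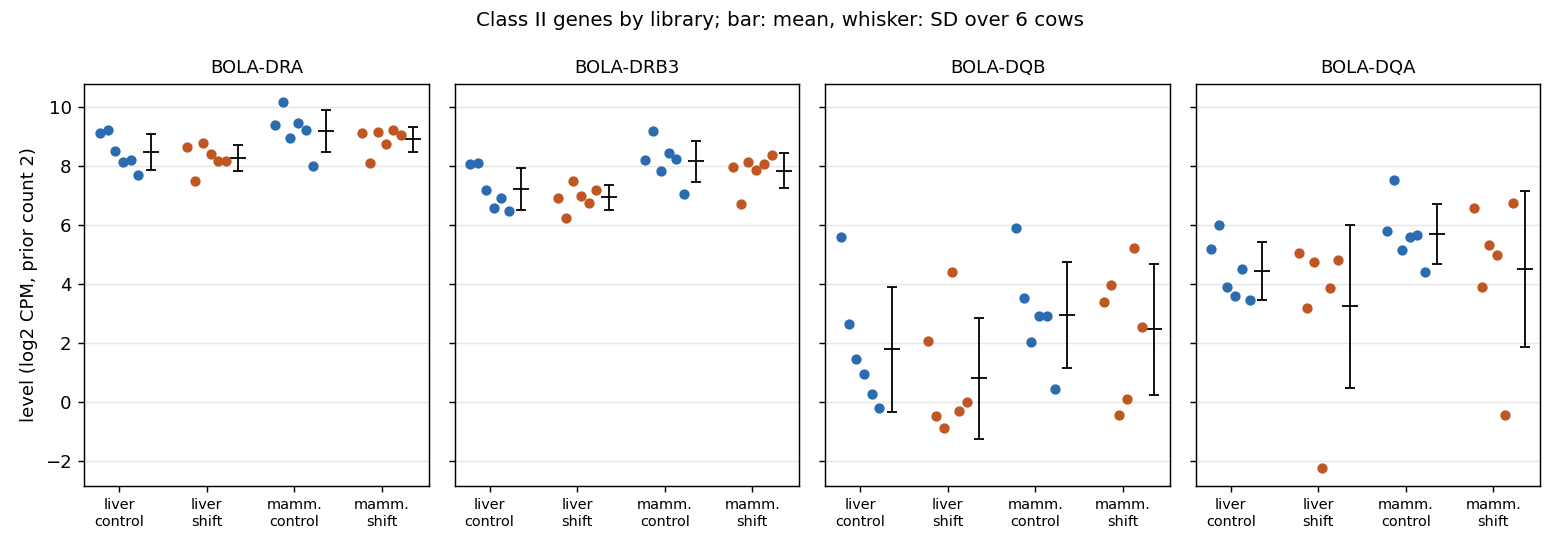
Level of each of the 4 genes (log2 CPM, prior count 2, vertical axis) in every library by tissue and treatment (6 libraries per group), with the group mean and SD. The DR genes vary least. BOLA-DQB holds 2 high cows (control cow 19 and phase shift cow 24) in both tissues, and BOLA-DQA holds phase shift cow 24 far below the rest.

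BOLA-DQA, a DQ alpha chain, had its outlying cow at the other end. Liver control cows ran from 10.9 through a median of 18.8 to 63.9 CPM, and mammary control cows from 21.2 through 49.8 to 184 CPM, with cow 21 highest in both tissues. Of the liver phase shift cows, 5 lay between 8.85 and 33.3 CPM, and cow 24 had 0 reads, with an exact 95% Poisson interval of 0 to 0.638 CPM. In mammary, the other 5 phase shift cows lay between 14.7 and 107 CPM, and cow 24 had 5 reads, or 0.525 CPM with an exact 95% Poisson interval of 0.170 to 1.22 CPM. The same cow was high for BOLA-DQB in both tissues and stood at 340 CPM in liver and 602 CPM in mammary for BOLA-DRA, within the range of the other cows.

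A search over all 27607 gene IDs asked how often a single cow was low in this way. A gene counted for a cow when each library of the other cows exceeded 4 times the higher of the cow's 2 libraries plus 0.2 CPM. For phase shift cow 24 exactly 1 gene qualified, BOLA-DQA, and for the other 10 cows with both tissues 0 did. Only genes with reads in every library of the other cows could qualify, which leaves out genes silent in either tissue. BOLA-DQA itself could not count for another cow, since its level in the liver of cow 24 was 0 CPM. The search was designed after the values of this cow were seen, and is a description.

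The spread between cows was wider for the DQ than for the DR genes, for BOLA-DQA largely through 1 cow. The SD of log2 CPM over the 12 liver libraries was 0.51 for BOLA-DRA and 0.58 for BOLA-DRB3, against 2.05 for BOLA-DQB and 2.08 for BOLA-DQA. The median over the 13752 genes tested in liver was 0.29. An SD as high as that of BOLA-DRA was found in 18.7% of these genes, and one as high as that of BOLA-DQA in 0.131%. In mammary the SDs were 0.58, 0.64, 1.95 and 2.01 in the same order of genes, with a median of 0.39 over 15547 genes. There an SD as high was found in 28.9% of genes for BOLA-DRA and in 0.566% for BOLA-DQB. Among genes within 0.5 log2 units of the same mean level, 3 of 1461 in liver and 21 of 2309 in mammary varied as much as BOLA-DQB, and for BOLA-DQA it was 5 of 2366 and 5 of 2676. Without phase shift cow 24, the SD of BOLA-DQA was 0.86 in liver and 1.05 in mammary, as high or higher in 4.54% and 6.68% of genes. Without control cow 19, that of BOLA-DQB was 1.61 and 1.75, as high or higher in 0.494% and 0.984% of genes.

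None of the 4 genes passed the test for an effect of the phase shift, in either tissue. In liver, edgeR's quasi-likelihood F test gave BOLA-DRA a log2 difference (phase shift minus control) of -0.24 and an adjusted p of 0.848. The 95% interval, derived from the log2 difference and F, ran from -0.83 to 0.35. BOLA-DRB3 stood at -0.38 (interval -1.06 to 0.30, edgeR adjusted p = 0.781). The intervals of the DQ genes were much wider, from -4.11 to 1.65 around -1.23 for BOLA-DQB and from -2.11 to 1.09 around -0.51 for BOLA-DQA (edgeR adjusted p = 0.832 and 0.894). Of the 13752 genes tested in liver, 0 passed, or 0%, and 813 (5.91%) had an unadjusted p under 0.05. DESeq2 called 16 of the 3890 genes to which it gave an adjusted p.

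In mammary the log2 differences lay below 0 as well. They were -0.38 for BOLA-DRA (interval -1.05 to 0.28), -0.36 for BOLA-DRB3 (-1.08 to 0.36), -0.39 for BOLA-DQB (-2.55 to 1.76) and -0.45 for BOLA-DQA (-2.19 to 1.30), with edgeR adjusted p-values from 0.932 to 0.983. Of 15547 genes tested, edgeR called 0 (0%), 739 (4.75%) had an unadjusted p under 0.05, and DESeq2 called 0. Without the libraries that stood apart, BOLA-DRA stood at -0.14 in liver and -0.43 in mammary, BOLA-DRB3 at -0.29 and -0.36, BOLA-DQB at -1.05 and -0.75, and BOLA-DQA at -0.38 and -0.44. For BOLA-DQB in both tissues and BOLA-DQA in mammary, the sign rested on single cows. Without control cow 19, BOLA-DQB stood at 0.87 in liver and 0.91 in mammary, and without control cow 21, BOLA-DQA stood at 0.20 in mammary. The difference between the tissues in this response, mammary minus liver, was -0.14 for BOLA-DRA (interval -1.02 to 0.74), 0.02 for BOLA-DRB3 (-0.95 to 0.99), 0.82 for BOLA-DQB (-2.53 to 4.18) and 0.07 for BOLA-DQA (-2.21 to 2.35), with edgeR adjusted p-values of at least 0.956. Without the libraries that stood apart it was -0.31, -0.10, 0.28 and -0.092 in the same order of genes. edgeR called it for 0 of 16656 genes (0%), with 1111 (6.67%) at an unadjusted p under 0.05. That fit, which gave the intervals, treated the libraries of a cow as independent. With the cow as a block edgeR called 0 of 16818 genes. DESeq2 called 1 of the 23311 genes to which it gave an adjusted p.

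**Figure D2:**
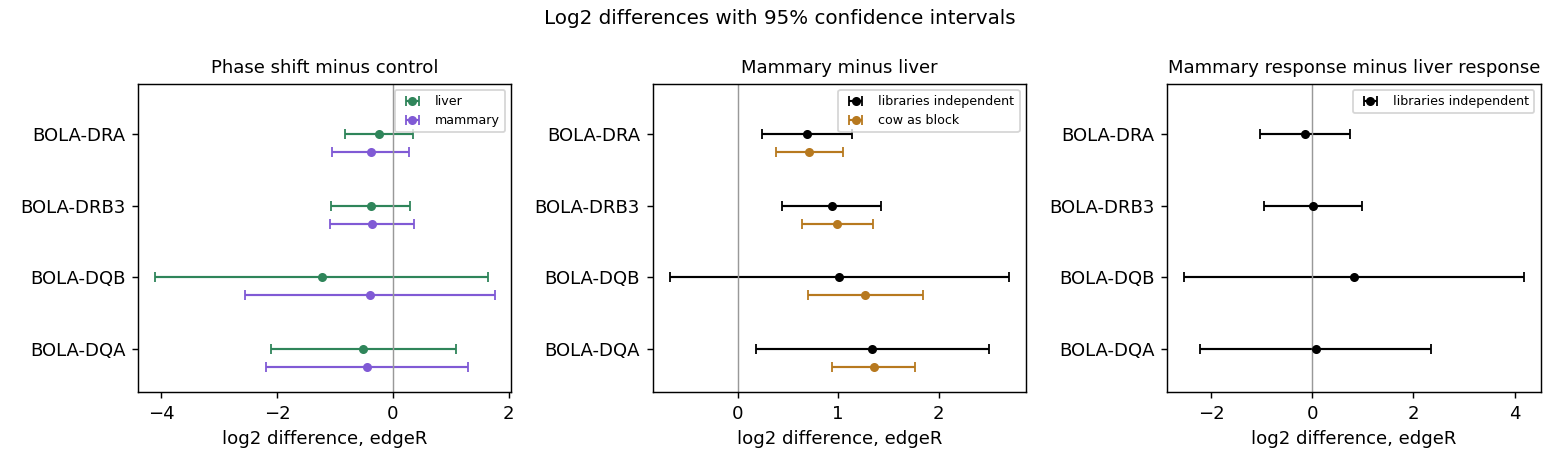
Log2 differences from edgeR, with 95% intervals derived from its F, for the 4 genes: phase shift minus control in liver and in mammary, mammary minus liver in that response, and mammary minus liver in level. The treatment intervals of all 4 genes cover 0, and those of the DQ genes are wider than those of the DR genes.

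BOLA-DRA, BOLA-DRB3 and BOLA-DQA were higher in mammary than in liver. The log2 difference was 0.69 ± 0.21 (SE) for BOLA-DRA, 0.93 ± 0.24 for BOLA-DRB3 and 1.34 ± 0.56 for BOLA-DQA, with edgeR adjusted p-values of 0.00605, 0.00114 and 0.0359. BOLA-DQB stood at 1.01 ± 0.82 and did not pass (edgeR adjusted p = 0.269). Differences between the tissues were common: of the 16656 genes tested 72.8% passed, 38.9% passed with mammary higher, and 28.7% passed at least as far above liver as BOLA-DRA. When the cow was kept as a block, over the 11 cows with both tissues, BOLA-DQB passed as well, at 1.27 ± 0.27 (edgeR adjusted p = 0.000746). BOLA-DQA passed in that fit too (edgeR adjusted p = 2.68e-05). Within the same animal, mammary exceeded liver for BOLA-DRB3, BOLA-DQB and BOLA-DQA in 11 of 11 cows, and for BOLA-DRA in 10 of 11, the exception being phase shift cow 23 at 0.992 times its liver level. Without the libraries that stood apart, the log2 difference was 0.76, 1.02, 0.99 and 1.44 for BOLA-DRA, BOLA-DRB3, BOLA-DQB and BOLA-DQA, with the same calls. The median fold within a cow was 1.77 for BOLA-DRA, 2.09 for BOLA-DRB3 and 1.88 for BOLA-DQB, and 2.65 for BOLA-DQA over the 10 cows with reads in liver.

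The size of the tissue difference depends on the scaling. With library totals in place of TMM, the log2 difference was 1.74 for BOLA-DRA, 1.99 for BOLA-DRB3, 2.07 for BOLA-DQB and 2.41 for BOLA-DQA. The median over all genes moved from 0.08 to 1.08, and the calls moved from 6485 higher and 5647 lower in mammary to 12182 higher and 2484 lower. Relative to the median of all genes, the 4 genes stood above it under both scalings. The unblocked call for BOLA-DQA was lost (edgeR adjusted p from 0.0514 to 0.0988) without any 1 of 9 libraries: liver of control cows 23, 24, 25 and 26 or phase shift cows 22 and 25, and mammary of control cow 21 or phase shift cows 19 and 26. That for BOLA-DQB was gained without the liver library of control cow 19 (edgeR adjusted p = 0.0247) or phase shift cow 24 (0.0369). These calls come from the fit that ignores the pairing of libraries by cow. With the cow as a block, both genes passed.

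Whether a cow kept its level from one tissue to the other was asked over the 11 cows with both. For BOLA-DQB, Pearson's r between log2 CPM in liver and in mammary was 0.909 and Spearman's rho 0.927 (permutation p = 4e-05 and 9e-05). For BOLA-DQA r was 0.961 and rho 0.818 (permutation p = 0.00044 and 0.0033). The DR genes gave r of 0.552 for BOLA-DRA and 0.508 for BOLA-DRB3, with rho of 0.273 and 0.291 (permutation p from 0.0751 to 0.418). Adjusted over the 12940 genes tested in both tissues, 0 genes (0%) passed by this permutation test, whose smallest possible p is 1e-05. The adjusted permutation p for r was 0.104 for BOLA-DQB, 0.322 for BOLA-DQA and 0.999 for both DR genes.

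**Figure D3:**
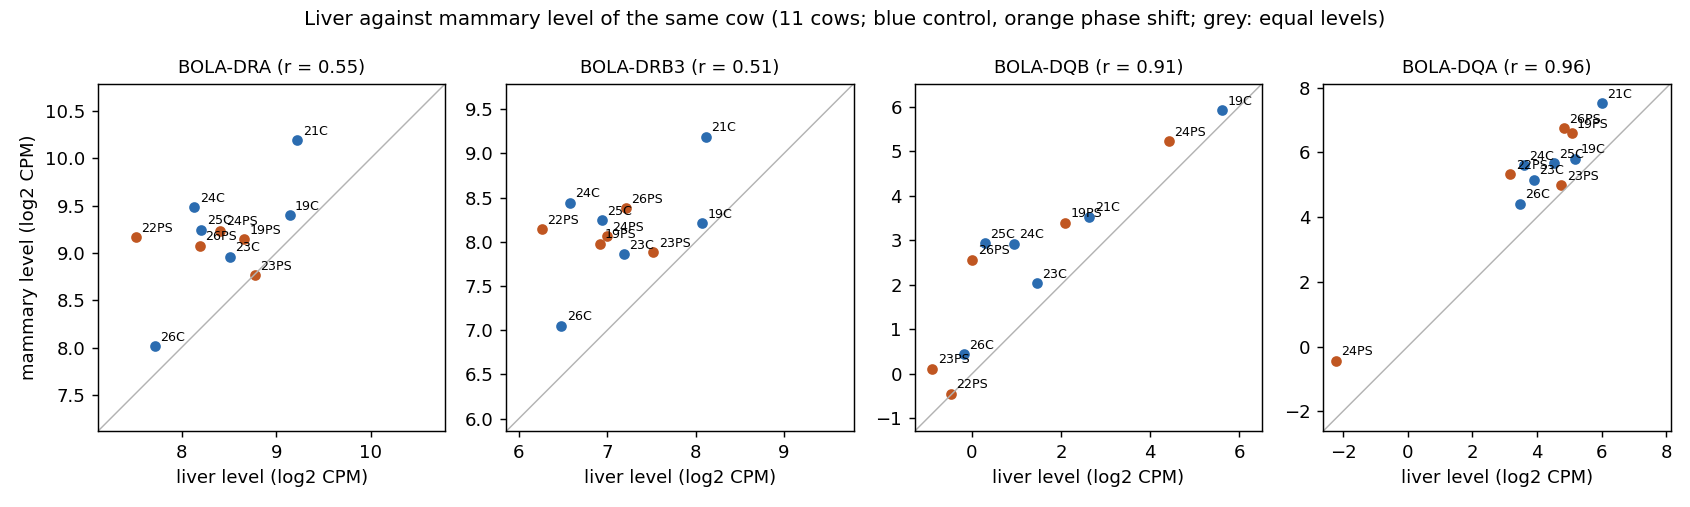
Level in mammary (log2 CPM, vertical axis) against level in liver (log2 CPM, horizontal axis) for the 11 cows with both tissues, one panel per gene, with control and phase shift cows marked. BOLA-DQB cows lie along a line from phase shift cows 22 and 23 to control cow 19 (r = 0.909), while the DR genes scatter (r = 0.552 and 0.508).

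Across those 12940 genes the median r was 0.04, with quartiles of -0.17 and 0.26. An r as high as that of BOLA-DQA was reached by 0.0309% of genes, and one as high as that of BOLA-DQB by 0.108%. For BOLA-DRA and BOLA-DRB3 the shares were 5.21% and 6.97%. With each treatment centred on its own mean, r was 0.541 for BOLA-DRA, 0.504 for BOLA-DRB3, 0.905 for BOLA-DQB and 0.959 for BOLA-DQA. Without the cows whose libraries stood apart, r was 0.440, 0.413, 0.922 and 0.969 in the same order.

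Some of these relations leaned on single cows. For BOLA-DQB, r without the 2 cows farthest from the median, control cow 19 and phase shift cow 24, was 0.796 (exact permutation p = 0.0134), a value reached by 0.742% of genes over the same number of cows. For BOLA-DQA it was 0.768 without phase shift cow 24 (permutation p = 0.0091), and 0.614 without that cow and control cow 21 (exact permutation p = 0.0847), so over all 11 cows the relation rests in part on these 2. An r as high was then reached by 0.927% and 5.02% of genes. For BOLA-DRB3, r was 0.138 without control cows 19 and 21, so its relation rests on them, and 0.215 without control cow 21 alone. For BOLA-DRA it was 0.491 without control cow 21 and phase shift cow 22, 0.337 without control cow 21 alone and 0.387 without control cow 26 alone.

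**Figure D4:**
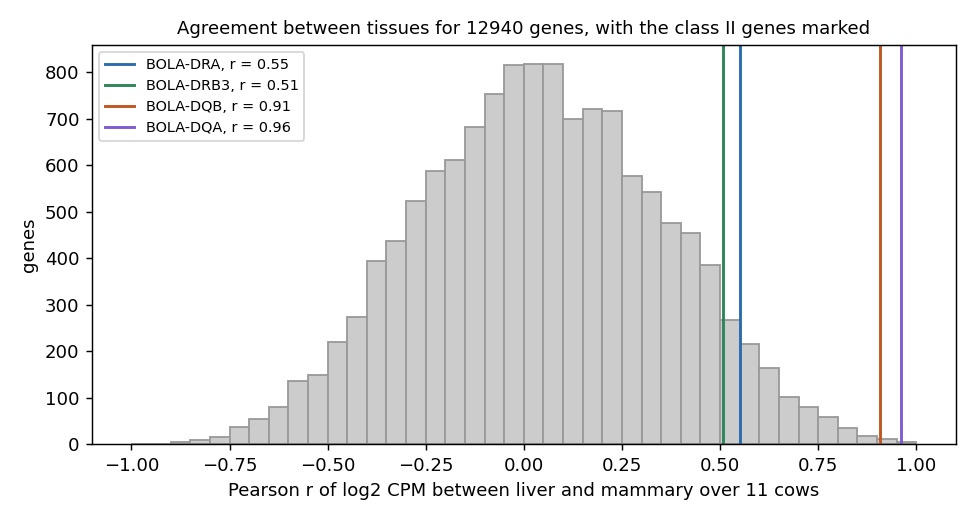
Number of genes (vertical axis) by Pearson's r between the liver and mammary libraries of 11 cows (horizontal axis) for the 12940 genes tested in both tissues, with the 4 genes marked. The distribution centres near 0 (median 0.04), and the DQ genes lie at its far right end, above 0.9.

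A count model gave a test with finer p-values. An edgeR fit with tissue and cow over the 22 libraries of these cows, added after the correlations were seen, tested all cow terms together, and 102 of 16818 genes (0.606%) passed. BOLA-DQB had F = 32.1 and ranked 8 (edgeR adjusted p = 0.000112), and BOLA-DQA had F = 23.0 and ranked 16 (0.000563). BOLA-DRA (F = 3.67) and BOLA-DRB3 (F = 3.73) did not pass, with edgeR adjusted p-values of 0.280 and 0.273. With each cow left out in turn, both DQ genes still passed. The adjusted p ranged from 8.78e-05 to 0.00249 for BOLA-DQB and from 0.000259 to 0.0403 for BOLA-DQA, whose F dropped to 10.2 without phase shift cow 24.

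The reads of each gene were also set against those of BOLA-DRA in the same library. This ratio, not corrected for length, was added after the levels were seen. BOLA-DRB3 reads stood at 29.7 to 50.8% of BOLA-DRA reads in liver and at 37.3 to 61.7% in mammary. For BOLA-DQB the ratio was 8.64% in liver and 8.94% in mammary of control cow 19, and 6.21% and 6.18% in phase shift cow 24. Every other liver library lay between 0.0741% and 1.01%. In mammary, phase shift cow 21, which has no liver library, stood near cow 24 at 5.54%, and the next highest was phase shift cow 19 at 1.82%. For BOLA-DQA the 3 highest cows were the same in both tissues: control cow 21 at 10.7% in liver and 15.8% in mammary, phase shift cow 26 at 9.62% and 19.9%, and phase shift cow 19 at 8.24% and 17.1%. Apart from phase shift cow 24, which stood at 0% and 0.0873%, the rest lay at 4.04 to 7.72% in liver and 5.27 to 8.40% in mammary.

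Between the tissues of a cow, the log2 ratio to BOLA-DRA correlated with r = 0.989 and rho = 0.936 for BOLA-DQA (permutation p = 4e-05 and 0.00011) and with r = 0.870 and rho = 0.691 for BOLA-DQB (permutation p = 0.00128 and 0.0225). For BOLA-DRB3 it was r = 0.540 and rho = 0.5 (permutation p = 0.0889 and 0.122). Without the 2 cows farthest from the median, r was 0.825 for BOLA-DQA, 0.613 for BOLA-DQB and 0.526 for BOLA-DRB3.

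**Figure D5:**
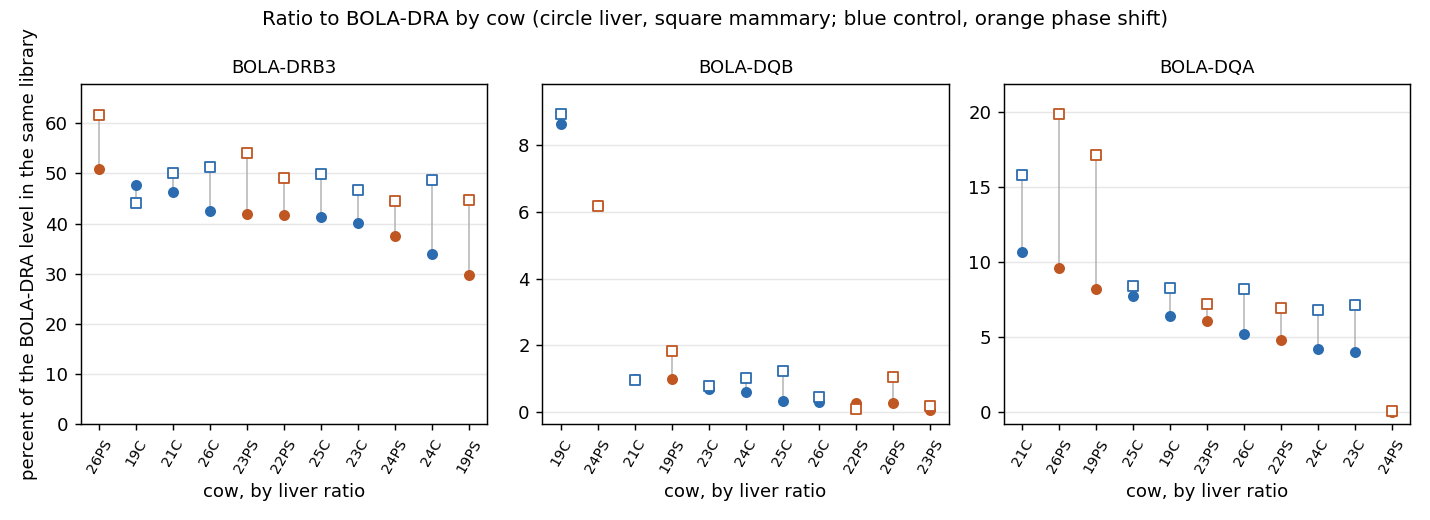
Reads of BOLA-DRB3, BOLA-DQB and BOLA-DQA as a percent of BOLA-DRA reads (vertical axis) for each of the 11 cows with both tissues (horizontal axis, ordered by the liver ratio). Circles stand for liver and squares for mammary, and control cow 19 and phase shift cow 24 are high for BOLA-DQB in both.

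Within a tissue, the DR chains varied together across cows, as r between BOLA-DRA and BOLA-DRB3 was 0.932 in liver (rho 0.888) and 0.962 in mammary (rho 0.867), with adjusted permutation p-values for r of 0.0239 and 0.0132. The share of all genes that passed this test against BOLA-DRA was 0.924% in liver and 5.46% in mammary, and against BOLA-DRB3 0% and 5.97%, so in liver the pair did not pass when the adjustment ran over the genes set against BOLA-DRB3. Without the libraries that stood apart, r was 0.917 in liver and 0.925 in mammary, and neither passed (adjusted permutation p = 0.0713 and 0.392). The DQ chains did not vary together in this way. Between BOLA-DQB and BOLA-DQA, r was -0.243 in liver and -0.211 in mammary, with rho of 0.336 and 0.112, and in liver r was 0.567 without the 2 libraries farthest from the median. BOLA-DRA and BOLA-DQB gave r of 0.62 in liver and 0.346 in mammary, neither of which passed. For BOLA-DRA and BOLA-DQA r was 0.336 in liver and 0.340 in mammary, where the ranks gave rho of 0.769 and 0.559. Neither rho passed (adjusted permutation p = 0.219 and 0.424).

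For each gene, the most alike other gene was taken by the lower of its 2 Spearman correlations over the 12 liver and the 12 mammary libraries, among 12936 genes, as a description. BOLA-DRA was most like ENSBTAG00000015730 (rho 0.909 in liver and 0.909 in mammary) and BOLA-DRB3 most like ENSBTAG00000044082 (0.853 and 0.909). BOLA-DQB was most like ENSBTAG00000038112 (0.811 and 0.769) and BOLA-DQA most like ENSBTAG00000009631 (0.797 and 0.811). A rho of at least 0.7 in both tissues was found for 62 genes with BOLA-DRA, 32 with BOLA-DRB3 and 15 with BOLA-DQA, but for 1 gene with BOLA-DQB.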

How the data were processed

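Per the labels' protocols, total RNA from the biopsies was freed of ribosomal RNA, and libraries were read from both ends. According to the submitters' processing notes the tools were Trimmomatic 0.36, STAR 2.5.2b, featureCounts (Subread 1.5.2) and DESeq2, with the build ARS-UCD1.2. Strand setting and annotation release: not given in the sources used here. For each tissue the authors deposited raw read counts by Ensembl gene, which were used for every main test, and regularized values on the log2 scale, which the authors made from those counts and which served as an alternative.

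Counts were tested on the whole table with edgeR 4.0.16 (R 4.3.3): TMM scaling, filterByExpr (count of at least 10, total of at least 15), robust quasi-likelihood F tests, and Benjamini-Hochberg adjustment at 0.05. The tissue fit took all 24 libraries, which treats the libraries of a cow as independent. Replicates within a tissue are separate cows. The cow label pairs liver and mammary libraries, since it names the same animal, and the fit with the cow as a block was an alternative. Log2 CPM used a prior count of 2. Correlations over 10 or more values used 100000 permutations, two-sided, and exact permutation below that. Alternatives were DESeq2 1.42.0, limma 3.58.1 on the regularized values, no filter, another prior count of 0.5, library totals, and leaving out libraries. Tests were checked on simulated data. The named genes are the 4 chosen by ID and, for each, the gene with the highest lower rho. The genes and lists were chosen with earlier results of these data known.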

Additional observations from a re-analysis of the deposited data

Results flagged for a closer look

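In each gene, tissue and treatment, the 6 cows were examined for a cow far from the others, by the gap of the highest or lowest value to its neighbour as a share of the whole range, against Dixon's 95% critical value for 6 values. Of 16 such groups, 4 were picked out, where chance gives about 1 in 20 groups, or 0.8. They were BOLA-DQB in liver of control cows, where cow 19 stood at 48.8 CPM, BOLA-DQB in mammary of control cows, where the same cow stood at 60.2 CPM, BOLA-DQB in liver of phase shift cows, where cow 24 stood at 21.1 CPM, and BOLA-DQA in mammary of control cows, where cow 21 stood at 184 CPM. The groups are not independent, since liver and mammary hold largely the same animals. That rate of chance holds for values that follow a normal distribution, and CPM is skewed. On log2 CPM, examined after the values were seen, 2 groups were picked out and none of those 4 among them: BOLA-DQA in liver of phase shift cows, through cow 24 with 0 reads, and BOLA-DRB3 in mammary of phase shift cows, through cow 21, whose library stood apart.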

How the results depend on the processing

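For the phase shift, none of the 4 genes passed in either tissue under any alternative that gave an adjusted p. DESeq2 in liver gave none for BOLA-DQB and BOLA-DQA. With the cow number as a replicate block, the liver log2 difference was 0.095 for BOLA-DRA and 0.032 for BOLA-DRB3, and the mammary one 0.15 for BOLA-DQB. Whether cows with the same number in the 2 treatments are linked was not settled. The correlation of their deviations ran from -0.085 to 0.101 in liver and from -0.387 to 0.168 in mammary. In liver, control cows 19, 23 and 26 correlated most with the phase shift cow of their own number, and control cows 24 and 25 did not. In mammary, this held for none of control cows 19, 21, 23, 24 and 26. In liver, 16 genes were called by DESeq2, of 3890 with an adjusted p, and 2 with the replicate block, against 0. With 1 library left out, the liver count ran from 0 to 1, BOLA-DQB from -3.14 to 0.87 in liver and from -1.21 to 0.91 in mammary, and BOLA-DQA from -0.74 to -0.034 in liver and from -0.85 to 0.20 in mammary. The -3.14, without phase shift cow 24, had an interval of -6.09 to -0.198 and an edgeR unadjusted p of 0.0387 (adjusted 0.671). BOLA-DRA ran from -0.37 to -0.067 in liver and from -0.54 to -0.13 in mammary, where -0.54, without control cow 26, had an edgeR unadjusted p of 0.0403 (adjusted 0.763). BOLA-DRB3 ran from -0.51 to -0.17 in liver and from -0.51 to -0.085 in mammary. For the difference of the responses between tissues, DESeq2 called 1 gene, BOLA-DRA was 0.035 with the cow as a replicate block, and without the libraries that stood apart BOLA-DRB3 was -0.10 and BOLA-DQA -0.092. Leaving out 1 library gave -0.31 to 0.11 for BOLA-DRA, -0.19 to 0.29 for BOLA-DRB3, -1.26 to 2.74 for BOLA-DQB and -0.40 to 0.71 for BOLA-DQA. For mammary against liver, BOLA-DRA and BOLA-DRB3 passed under every alternative run. BOLA-DQA was 1.35 with no filter (edgeR adjusted p = 0.0526) and 1.02 to 1.58 with 1 library left out. With the cow as a replicate block BOLA-DQA passed (edgeR adjusted p = 2.68e-05). BOLA-DQB passed with library totals (2.07) and with the cow as a replicate block (1.27), and ran from 0.36 to 2.04 with 1 library left out. The correlation of BOLA-DRA with BOLA-DRB3 no longer passed without the libraries that stood apart (0.917 in liver, 0.925 in mammary) or without the 2 farthest (0.856 and 0.931), and that of BOLA-DQB with BOLA-DQA in liver was 0.567 without the 2 farthest. The agreement between tissues kept its sign in all 71 alternatives, and none of the 68 with an adjusted permutation p passed. Except in the settings that left out 2 cows, the smallest possible permutation p was about 1e-05. A lone gene at that value could not pass after adjustment over all genes, so failing in those settings does not decide whether the agreement held. With 1 cow left out, the SD of log2 CPM of BOLA-DQA ran from 0.86 to 2.18 in liver and from 1.05 to 2.11 in mammary. On log2 CPM, 2 groups held a cow past Dixon's critical gap, against 4 on CPM. Apart from settings that leave out libraries, the cause was not tested. Depth limits the DQ genes, with as few as 3 reads of BOLA-DQB and 0 of BOLA-DQA in a library.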
